A study of Bubalus bubalis with 36 samples.

Results

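The miR-29 family of microRNAs (miRNAs) was followed through the body fat of 6 buffaloes (Bubalus bubalis). Its members were taken as every feature of the count table named bta-miR-29 with a letter from a to e, with or without an arm suffix. This gave 6 of the 1682 features: miR-29a, miR-29b, miR-29c, miR-29d-3p, miR-29d-5p and miR-29e. The names are those of bovine miRNAs, and the table carries no coordinates or sequences.

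Each animal gave fat from the same 6 depots, which made 36 small RNA libraries. Subcutaneous fat came from the back (BSAT), over the sternum (SSAT) and from the groin (IAT), with 18 libraries. Visceral fat came from the omentum (OAT), the pericardium (PCAT) and around the kidney (PRAT), also with 18 libraries. All animals were weaned at 3 months, entered fattening at 15 months and were killed at 20 months of age, and the labels name no treatment or genotype. A library is named here by its depot and animal, so OAT4 is the omental library of animal 4.

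miR-29 miRNAs guide the silencing complex to messenger RNAs that match their seed, the short stretch near the start of the mature miRNA. Without sequences the seeds of the members could not be compared here, and miR-29d-5p comes from the opposite arm of its precursor. In human and mouse miR-29a, miR-29b and miR-29c share this seed. In human and mouse cells their best known targets are collagens, elastin and other genes of the extracellular matrix, so that high miR-29 goes with low matrix production. In rodent fat, liver and muscle, members of the family are also known to lower components of insulin signalling. In human and mouse, miR-29a and miR-29c each share a primary transcript with a copy of miR-29b. These miRNAs are also near-identical in sequence in human and mouse. How alike the members of this table are could not be compared, and counting may have assigned a read to the wrong one. This makes each single level among them uncertain.

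The libraries held between 9484589 and 13920998 counted reads (median 12525362). Levels are given as CPM, counts scaled to a common library total, after adjustment by TMM, a factor that puts the bulk of the features at a common level and here ran from 0.745 to 1.26. Of 5 epithelial marker miRNAs, 5 were lower in subcutaneous than in visceral fat, as were 2 of 5 leukocyte features, 1 of 6 muscle features and the single liver marker, miR-122. Of 6 stromal features 3 were higher in subcutaneous fat, and none of 3 erythroid and 2 endothelial features was called between the classes by edgeR's test at an adjusted p under 0.05. Of all 667 tested features 7.2% were called higher in subcutaneous fat and 9.3% lower, so a single call in a small set says little. Over the 6 depots edgeR's F test called 2 of the 3 erythroid features, beside 13.9% of all features. These were miR-451 (adjusted p = 0.00532) and miR-486 (adjusted p = 0.00728). Summed erythroid markers were highest by median in BSAT, with 45988 to 185650 CPM, and lowest in SSAT, with 8231 to 35036 CPM. The summed epithelial markers ranged from 3.72 to 77.6 CPM in subcutaneous libraries and from 5.17 to 2812 CPM in visceral libraries. For the leukocyte markers the subcutaneous range was 1543 to 25881 CPM and the visceral range 3066 to 46842 CPM. Stromal markers summed to between 22002 and 41162 CPM in subcutaneous fat and between 8435 and 90502 CPM in visceral fat. The stromal sum was mostly miR-143 (mean 28569 CPM), which was not called between the classes. The erythroid sum was mostly miR-451 (mean 51142.5 CPM). The part of these cell types in any miR-29 value was not tested. In bulk tissue fewer cells of a type and less RNA per cell cannot be told apart. Library names also carry a letter, A in 8 libraries and B in 28, whose meaning the labels do not give. Of the letter A libraries 7 were visceral (OAT4, OAT6, PCAT2, PCAT5, PRAT1, PRAT2 and PRAT4) and 1 was subcutaneous (BSAT4).

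The family was dominated by miR-29a. miR-29a held 1590083 reads over all libraries, or 95.6% of the family's reads, and ranked 48 by mean level among the 1682 features. miR-29c followed with 47959 reads (2.88%) and miR-29b with 20836 (1.25%). The arms of miR-29d were scarce, with 3002 reads (0.180%) for the 3p arm and 2071 (0.124%) for the 5p arm. miR-29e had 159 reads in all. These are read shares, and how evenly the library preparation takes up each miRNA was not tested.

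Together the members took 0.341 ± 0.0468% of a subcutaneous library's reads and 0.404 ± 0.147% of a visceral one's (SD, n = 18 each). The range was 0.268% to 0.444% in subcutaneous and 0.177% to 0.701% in visceral libraries, so the visceral range enclosed the subcutaneous one. After TMM scaling the means were 3667 ± 523 CPM for the subcutaneous class and 3687 ± 1112 CPM for the visceral class. The share of miR-29a within the family was close in both classes, at 95.9 ± 1.05% in subcutaneous and 95.03 ± 1.37% in visceral fat, and it lay between 91.8% and 97.6% in every library.

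**Figure D1:**
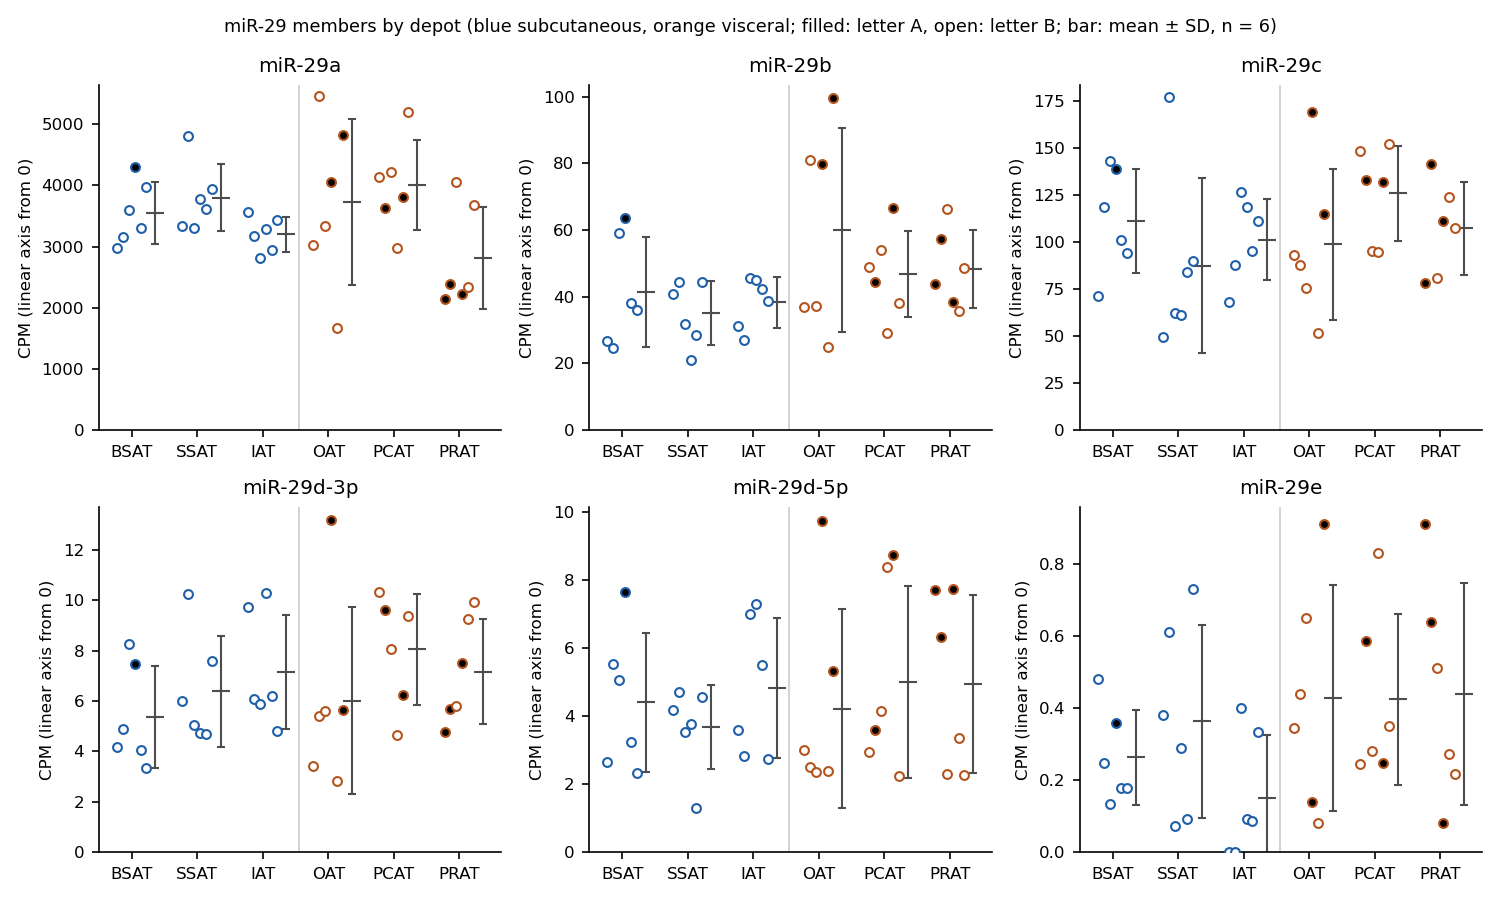
Level of each miR-29 member in CPM (linear axis from 0) in the 36 libraries by depot, with 1 point per library and the mean ± SD of 6 animals beside it (lower bars are cut at 0). Subcutaneous depots are on the left of each panel; miR-29a lies between 1664 and 5460 CPM, and OAT shows the widest spread of miR-29a and miR-29b.

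miR-29a, the abundant member, was at 2811, 3386 and 4803 CPM (lowest, median and highest) in subcutaneous libraries, against 1664, 3662 and 5460 CPM in visceral libraries. Of the 18 visceral libraries 10 lay inside the subcutaneous range, 3 above it and 5 below it. The means were 3518 ± 502 CPM in subcutaneous and 3512 ± 1088 CPM in visceral fat (SD, n = 18 each). The fitted log2 difference of subcutaneous minus visceral was 0.02 ± 0.12 (SE), with a 95% interval from −0.23 to 0.27, and 4 of 6 animals were higher in subcutaneous fat. edgeR's quasi-likelihood test gave a Benjamini-Hochberg adjusted p of 0.956. miR-29a lay just above the median of all features, which was −0.09. Scaling by library totals alone put miR-29a at −0.21 and that median at −0.29, a shift of the features in common.

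miR-29b, a minor member that in human cells carries a terminal motif for import into the nucleus, had the largest class difference among the 5 tested members. It was at 21.0, 38.4 and 63.7 CPM in subcutaneous libraries (lowest, median, highest), against 25.1, 46.6 and 99.8 CPM in visceral libraries. Most visceral libraries (13 of 18) lay inside the subcutaneous range and 5 lay above it. Mean miR-29b was 38.3 ± 11.4 CPM in subcutaneous and 51.8 ± 20.0 CPM in visceral fat (SD, n = 18 each). The log2 difference was −0.43 ± 0.18 (SE; 95% interval −0.78 to −0.07), and the mean was lower in subcutaneous fat in 6 of 6 animals. The unadjusted p was 0.0199 and the adjusted p of edgeR's quasi-likelihood test 0.0921, so miR-29b was not called. Per animal the log2 difference ran from −0.92 in animal 2 to −0.12 in animal 5.

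The miR-29b result sat near the threshold of 0.05. It was called in 3 of 52 alternative settings: with library totals alone (−0.65, adjusted p = 0.0197), with limma on log2(RPM + 1) (−0.59, adjusted p = 0.0345), and without the library OAT5 (−0.49, adjusted p = 0.0360). Library totals alone moved the median of all features to −0.29, against −0.09 with TMM, and limma put it at −0.18. DESeq2 gave −0.40 with an adjusted p of 0.0790. Among letter B libraries the difference was −0.28 (adjusted p = 0.435), and with the letter as a covariate in edgeR it was −0.26 (adjusted p = 0.359). Letter A libraries averaged 61.8 ± 20.6 CPM of miR-29b (SD, n = 8) and letter B libraries 40.3 ± 13.3 CPM (n = 28). Within letter A only 1 library was subcutaneous, too few for a value.

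miR-29c, whose range was nearly the same in both classes, was at 49.5, 94.9 and 177 CPM in subcutaneous libraries, against 51.9, 109 and 169 CPM in visceral libraries. All 18 visceral libraries lay inside the subcutaneous range. The log2 difference was −0.15 ± 0.16 (SE; 95% interval −0.48 to 0.18), and edgeR's adjusted p was 0.579. For miR-29d-3p, from the precursor arm that yields the main mature miRNA of the other members in human and mouse, the levels were 3.33, 5.93 and 10.3 CPM in subcutaneous libraries, against 2.82, 6.03 and 13.2 CPM in visceral libraries. Of the visceral libraries 15 of 18 lay inside the subcutaneous range. The log2 difference of miR-29d-3p was −0.17 ± 0.19 (SE; 95% interval −0.56 to 0.22), with an adjusted p of 0.586 by edgeR. Both were lower in subcutaneous fat in 4 of 6 animals, and their intervals leave room for differences of about the size measured for miR-29b. Single libraries moved both values: without OAT4 the difference was −0.06 for miR-29c and −0.03 for miR-29d-3p, and without SSAT2 it was −0.23 for miR-29c.

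miR-29d-5p, the opposite arm of the miR-29d precursor, was at 1.32, 3.97 and 7.65 CPM in subcutaneous libraries, against 2.25, 3.48 and 9.75 CPM in visceral libraries. Mean miR-29d-5p was 4.31 ± 1.78 CPM in subcutaneous fat and 4.73 ± 2.65 CPM in visceral fat (SD, n = 18 each), the opposite order to the medians, and 5 visceral libraries lay above the subcutaneous range. The log2 difference was −0.14 ± 0.25 (SE; 95% interval −0.65 to 0.37), 3 of 6 animals went each way, and edgeR's adjusted p was 0.729. The scarce miR-29e had 55 reads over the 18 subcutaneous libraries and 104 over the 18 visceral ones. It did not pass the filter on low counts (a minimum of 10) and was not tested across features. It had no reads in IAT1 and IAT2, where a count of 0 allows up to 0.327 and 0.237 CPM (3 counts; counting error only). Its other counts ran from 1 to 13 a library, and 15 of 18 visceral libraries lay inside the subcutaneous range.

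Between the classes, then, edgeR called 0 of the 5 tested members, with 1 of 5 at an unadjusted p under 0.05. Over all 667 tested features 16.5% were called, 110 in number, and 208 had an unadjusted p under 0.05. DESeq2 called 0 members and limma on log2(RPM + 1) called 1, miR-29b. The members' median log2 difference was −0.15, beside −0.09 over all tested features. The F test over all 6 depots called 0 of 5 members against 13.9% of all features, with a smallest adjusted p of 0.357 and none at an unadjusted p under 0.05. Within the subcutaneous class 0 of 5 were called (0.6% of all features, smallest adjusted p = 0.825). Within the visceral class 0 of 5 were called too (1.95% of all features, smallest adjusted p = 0.345). In both of these edgeR tests no member had an unadjusted p under 0.05.

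**Figure D2:**
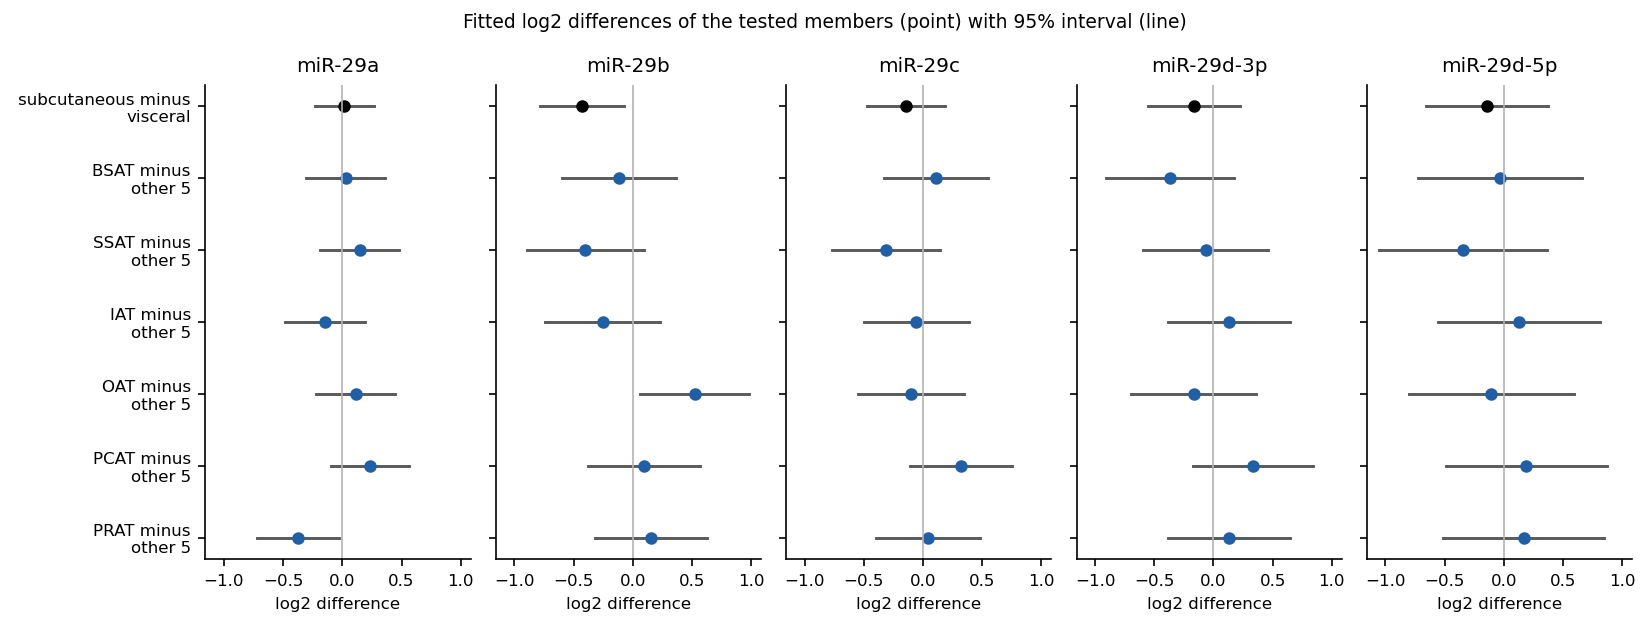
Fitted log2 differences of the 5 tested miR-29 members (points) with 95% intervals (lines), for subcutaneous minus visceral fat and for each depot minus the mean of the other 5. Most intervals include 0; those of miR-29b for the classes and in OAT, and of miR-29a in PRAT, do not, and none passed the adjusted threshold.

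By depot, miR-29a was highest in PCAT with 4002 ± 737 CPM (SD, n = 6 in each depot), followed by SSAT with 3799 ± 550, OAT with 3728 ± 1357, BSAT with 3550 ± 510, IAT with 3205 ± 286 and PRAT with 2807 ± 835 CPM. Neighbouring depots in this order differed by less than the SD of at least 1 of them, and PCAT exceeded PRAT by 1.43-fold. Within animals PCAT held the highest miR-29a in 4 of 6 and PRAT the lowest in 3 of 6. The PRAT libraries of animals 1 to 6 were at 2147, 2381, 4053, 2231, 2347 and 3686 CPM. Animals 1, 2, 4 and 5 thus lay below every subcutaneous library, and animals 3 and 6 lay well inside the subcutaneous range. Against the mean of the other 5 depots PRAT was at −0.38 ± 0.17 on the log2 scale (SE), with an unadjusted p of 0.0332 and an adjusted p of 0.277 by edgeR. Of the low PRAT libraries those of animals 1, 2 and 4 are letter A, at 2253 ± 119 CPM (SD, n = 3), against 3362 ± 898 CPM in the 3 letter B libraries. Among letter B libraries alone PRAT was at −0.03 (adjusted p = 0.983), with the letter as a covariate at −0.37 (adjusted p = 0.407), and without animal 2 at −0.23 or animal 4 at −0.25.

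miR-29b followed another order. It averaged 60.0 ± 30.6 CPM in OAT, 48.4 ± 11.7 in PRAT, 46.9 ± 12.9 in PCAT, 41.4 ± 16.4 in BSAT, 38.3 ± 7.59 in IAT and 35.2 ± 9.61 CPM in SSAT (SD, n = 6 in each depot). The 3 visceral means stood above the 3 subcutaneous means, with gaps between neighbours below the SD of at least 1 of each pair. The OAT libraries of animals 1 to 6 held 36.9, 80.9, 37.2, 80.0, 25.1 and 99.8 CPM. Animals 2, 4 and 6 were thus higher than every subcutaneous library, and animals 1, 3 and 5 lay inside the subcutaneous range. OAT minus the mean of the other 5 depots was 0.52 ± 0.23 (SE), with an unadjusted p of 0.0268 and an adjusted p of 0.288 by edgeR. Of the high OAT libraries OAT4 and OAT6 are letter A, averaging 89.9 CPM (2 libraries), against 45.0 ± 24.6 CPM in the 4 letter B libraries (SD). Among letter B libraries alone the OAT difference was 0.17 (adjusted p = 0.881), with the letter as a covariate 0.40 (adjusted p = 0.431), and without animal 6 it was 0.32 (adjusted p = 0.671). The same 3 OAT libraries were the 3 highest of OAT in miR-29a, at 5460, 4060 and 4820 CPM, against 3027, 3336 and 1664 CPM in animals 1, 3 and 5.

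miR-29c was highest in PCAT (126 ± 25.4 CPM), followed by BSAT (111 ± 27.7), PRAT (107 ± 24.5), IAT (101 ± 21.6), OAT (98.9 ± 40.3) and SSAT (87.5 ± 46.5 CPM; SD, n = 6 each). SSAT was the lowest depot of 4 animals, while its library from animal 2 held the highest miR-29c of all. The depot means of miR-29d-3p ran from 8.05 ± 2.20 CPM in PCAT to 5.36 ± 2.02 CPM in BSAT (SD, n = 6 each). Those of miR-29d-5p ran from 5.02 ± 2.83 CPM in PCAT to 3.69 ± 1.25 CPM in SSAT. miR-29e averaged between 0.439 ± 0.308 CPM in PRAT and 0.152 ± 0.173 CPM in IAT, the depot with both libraries at 0.

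All 5 tested members had a positive difference in PCAT against the other depots, with a median of 0.24 beside −0.01 over all features, and none was called there. All 5 were positive with RLE factors, library totals, limma and DESeq2 too, where the members' median ran from 0.13 with DESeq2 (all features −0.14) to 0.41 with limma (all features 0.13). The members share libraries and scaling, so their common sign is 1 observation on 6 libraries. For each depot set against the mean of the other 5, edgeR called 0 of 5 members, and 2 of these 30 values had an unadjusted p under 0.05 (miR-29b in OAT and miR-29a in PRAT). The share of all features called was 2.25% in BSAT, 9.3% in SSAT, 0.3% in IAT, 1.5% in OAT, 9.15% in PCAT and 3.15% in PRAT. Among the 15 pairs of depots edgeR called 0 of 75 combinations of member and pair, against 2.83% of all combinations of feature and pair. The smallest adjusted p for miR-29b was 0.127, for SSAT minus OAT (−0.77 ± 0.30, SE). For miR-29a it was 0.201, for PCAT minus PRAT (0.51 ± 0.21, SE). miR-29a and miR-29b each had 2 pairs with an unadjusted p under 0.05, and the other members had none.

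Ratios within a library do not depend on scaling, and were taken of each minor member over miR-29a. For every 100 reads of miR-29a subcutaneous libraries held 1.10 ± 0.311 reads of miR-29b and visceral libraries 1.51 ± 0.430 (SD, n = 18 each). PRAT (1.78 ± 0.391) and OAT (1.56 ± 0.388) had the highest ratios and SSAT (0.931 ± 0.240) the lowest (SD, n = 6 each). PCAT, at 1.19 ± 0.338, lay between BSAT (1.15 ± 0.349) and IAT (1.21 ± 0.312), so the visceral means did not all lie above the subcutaneous ones. Single depots were not tested for this ratio. Averaged per animal, the log2 ratio of subcutaneous minus visceral was −0.46 ± 0.33 (SD over 6 animals) and was lower in subcutaneous fat in 5 of 6. The exact two-sided sign-flip permutation test gave p = 0.0625 (0.156 adjusted over 5 ratios); 6 animals allow no p below 0.0313, and at least 4 ratios would have to reach it for an adjusted call. Among letter B libraries the difference was −0.26. Letter A libraries held 1.83 ± 0.371 miR-29b reads per 100 of miR-29a (n = 8) and letter B libraries 1.15 ± 0.302 (n = 28), and the part of the letter in the class difference was not tested apart from these values.

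**Figure D3:**
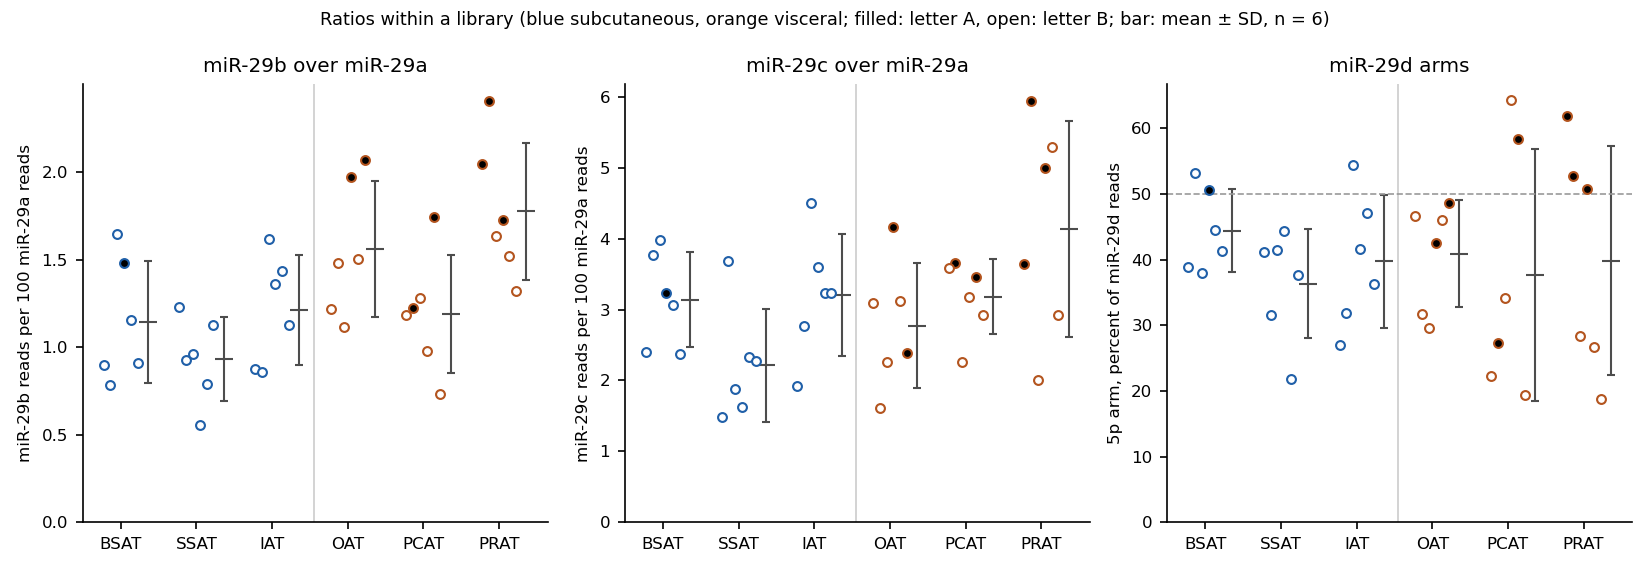
Reads of miR-29b and miR-29c per 100 miR-29a reads, and the 5p arm as a percent of miR-29d reads, in each library by depot (linear axes from 0; bars are mean ± SD, n = 6; filled points are letter A libraries). PRAT and OAT have the highest mean miR-29b ratio (1.78 and 1.56), SSAT the lowest (0.931), and the 5p share runs from 18.75% to 64.3%.

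For miR-29c, subcutaneous libraries held 2.86 ± 0.868 reads per 100 of miR-29a and visceral libraries 3.36 ± 1.16 (SD, n = 18 each). Its difference per animal was −0.22 ± 0.51 (SD, n = 6; exact permutation p = 0.344, adjusted 0.430). PRAT had the highest mean, 4.13 ± 1.53, and SSAT the lowest, 2.22 ± 0.797 (SD, n = 6 each). The ratios of the miR-29d arms differed by −0.20 ± 0.32 for 3p (exact permutation p = 0.25, n = 6) and −0.11 ± 0.77 for 5p (exact permutation p = 0.781, n = 6), in log2. The miR-29e ratio rests on 0 to 13 reads a library, and a count of 0.5 was added to every count before the logarithm, which sets its value in IAT1 and IAT2. With that its difference was −0.82 ± 0.60 (SD), lower in subcutaneous fat in 5 of 6 animals (exact permutation p = 0.0625, adjusted 0.156, n = 6). With reads summed over the 3 depots of a class in each animal (4 to 24 reads) and nothing added, chosen after the data were seen, it was −0.74 ± 0.37 and lower in 6 of 6 animals. The exact permutation p was then 0.0313, the smallest that 6 animals allow, and 0.156 after adjustment over the 5 ratios. Letter A libraries held 0.0158 ± 0.0136 miR-29e reads per 100 of miR-29a (SD, n = 8) and letter B libraries 0.00871 ± 0.00643 (n = 28). The part of the letter in the miR-29e difference was not tested.

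Most precursors yield 1 arm in excess, and for the miR-29 family this is usually the 3p arm. Over the 36 libraries the 5p arm made up 39.8 ± 11.9% of the miR-29d reads (SD, n = 36). The 3p arm may be close in sequence to the far more abundant miR-29a, which could not be compared here. How reads that match several members were treated is not given. The share of the arms is uncertain for that reason, and this was not tested. Subcutaneous libraries were at 40.1 ± 8.56% and visceral libraries at 39.4 ± 14.8% (SD, n = 18 each), so the classes had nearly the same mean and the visceral libraries the wider spread. The lowest share was 18.75% in PRAT6 (21 of 112 reads; Wilson 95% interval 12.6% to 27.0%) and the highest 64.3% in PCAT4 (101 of 157 reads; 56.6% to 71.4%). These intervals cover counting error only, since reads without molecular identifiers are not independent molecules. The 5p arm outnumbered the 3p arm in 8 of 36 libraries, 5 of them among the 8 letter A libraries.

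The letter in the library name was compared after the data had been seen, with 1 coefficient per depot in the fit. For A minus B, miR-29d-5p was called, 1 of 5 members beside 1.05% of all features. Its level was 3.60, 7.68 and 9.75 CPM (lowest, median, highest) in the 8 letter A libraries, against 1.32, 3.30 and 8.41 CPM in the 28 letter B libraries. Of the letter B libraries 12 lay above the lowest letter A library, and 2 letter A libraries lay above every letter B library. In OAT letter A averaged 7.54 CPM (2 libraries) and letter B 2.57 CPM (4 libraries), and in PRAT the means were 7.26 CPM for A and 2.65 CPM for B (3 libraries each). In PCAT they were 6.17 CPM for A (2 libraries) and 4.45 CPM for B (4 libraries), and the single letter A library of BSAT held 7.65 CPM beside a mean of 3.76 CPM in letter B.

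The fitted log2 difference of miR-29d-5p, A minus B, was 1.16 ± 0.28 (SE), with an adjusted p of 0.0171 by edgeR's quasi-likelihood test. The call was lost with the animal as a block (1.01, adjusted p = 0.0777), without the count filter (1.21, adjusted p = 0.114) and in 5 of 6 fits that left out an animal. It was also lost without OAT4 (0.98, adjusted p = 0.145), PCAT5 (1.11, adjusted p = 0.0779), PRAT3 (1.16, adjusted p = 0.0532) or PRAT6 (1.08, adjusted p = 0.0888). miR-29b differed by 0.48 ± 0.21 (adjusted p = 0.445), miR-29c by 0.36 ± 0.21 (0.690), miR-29d-3p by 0.27 ± 0.25 (0.813) and miR-29a by −0.04 ± 0.16 (adjusted p = 0.975) in the same edgeR fit. With the letter as a covariate the class difference of miR-29d-5p was 0.34, and among letter B libraries 0.40, both opposite in sign to the −0.14 of all libraries.

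Across the 36 libraries 9 of 10 pairs of tested members correlated positively in log2 CPM, and 7 of the 10 had an adjusted p under 0.05 for Pearson's r (as many for Spearman's rho). p-values came from 100000 permutations of the depots within each animal, adjusted over the 10 relations, and the points share libraries, scaling factors and 6 animals. Over all 222111 pairs of the 667 tested features 50.5% were positive, with a median r of 0.00, and 10.47% reached the smallest r of those 7 relations, 0.34. Among features of at least 10 CPM 13.3% of pairs reached it. That limit was taken from the members' own relations, so 7 of 10 reach it by construction. The median r of the 10 member pairs was 0.38. The part of reads assigned to the wrong member in these values was not tested. The closest pair was miR-29c and miR-29d-3p (r = 0.58, p = 2e-04, adjusted 0.002; rho = 0.58, p = 1.9e-04, adjusted 0.0019). Its r was 0.56 without SSAT1 and OAT5, the libraries farthest from the median of miR-29c, 0.54 among letter B and 0.72 among letter A libraries. miR-29b and miR-29c correlated with r = 0.50 (p = 0.0014, adjusted 0.007) and rho = 0.52 (p = 0.001, adjusted 0.005). Without OAT6 and SSAT4 their r was 0.47, and it was 0.38 in letter B and 0.44 in letter A. miR-29a and miR-29b gave r = 0.46 (p = 0.014, adjusted 0.025) and rho = 0.50 (p = 0.0063, adjusted 0.016), and r = 0.44 without OAT5 and PRAT1. Within letters their r was higher than over all libraries, 0.52 in B and 0.78 in A.

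**Figure D4:**
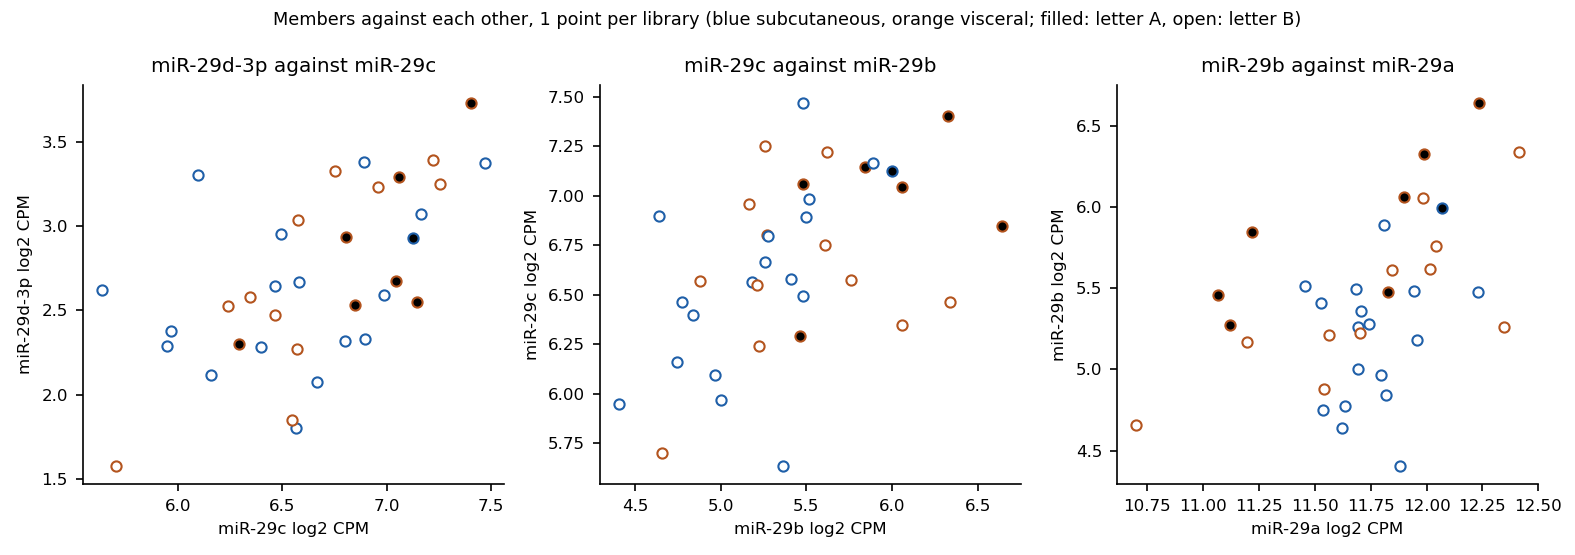
Log2 CPM of pairs of miR-29 members, 1 point per library (36), for miR-29d-3p against miR-29c, miR-29c against miR-29b and miR-29b against miR-29a; filled points are letter A libraries. The clouds rise to the right with r = 0.58, 0.50 and 0.46, and subcutaneous and visceral libraries overlap in all 3 panels.

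Some of the weaker relations differed between sets of libraries. miR-29a and miR-29d-3p had r = 0.38 (adjusted p = 0.04). Without OAT5 and PRAT1 their r was 0.21 (p = 0.21), so the relation rested on those libraries in that comparison, while it was 0.42 among letter B and 0.51 with depot and animal means removed. miR-29b and miR-29d-5p had r = 0.34 over all libraries (adjusted p = 0.025). Without OAT6 and SSAT4 their r was also 0.34, with an unadjusted permutation p of 0.054. Among letter B their r was 0.04, among letter A 0.15, and with depot and animal means removed 0.49. The most abundant member and the 5p arm of miR-29d were the pair with a negative sign (r = −0.17, adjusted p = 0.27). The arms of the miR-29d precursor correlated with r = 0.28, which did not pass (adjusted p = 0.16).

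miR-29a varied little for its level. The SD of its log2 CPM over the 36 libraries was 0.364, the 17th smallest of the 667 tested features, whose median was 0.958. Among the 79 features with a mean of at least 1000 CPM, where counting error is small, it had the 11th smallest SD, beside a median of 0.748. The other members had SDs of 0.461 (miR-29c), 0.516 (miR-29b), 0.517 (miR-29d-3p) and 0.681 (miR-29d-5p). Highest over lowest library, the levels differed 3.28-fold for miR-29a, 3.58-fold for miR-29c, 4.74-fold for miR-29b, 4.66-fold for miR-29d-3p and 7.40-fold for miR-29d-5p. Depots held 24.1% of the variance of miR-29a, 18.2% of miR-29b, 18.7% of miR-29c, 17.5% of miR-29d-3p and 4.45% of miR-29d-5p. The median over all tested features was 18.6%, so the members, other than miR-29d-5p, were close to a typical feature in this respect. Means of 6 libraries scatter, so such a share is positive even where depots do not differ.

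**Figure D5:**
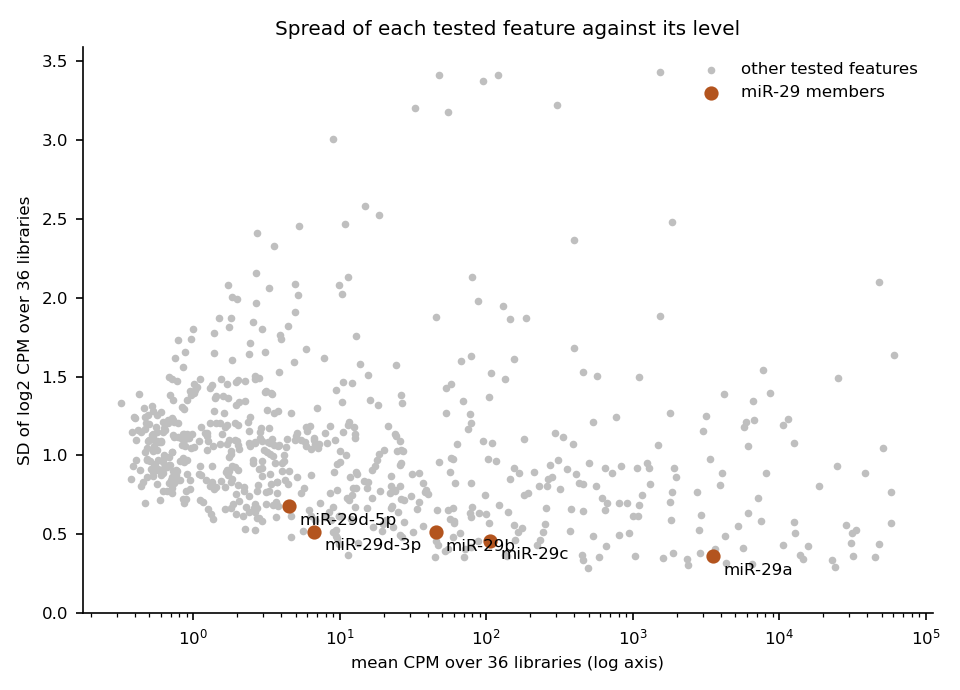
SD of log2 CPM over 36 libraries against mean CPM (log axis) for the 667 tested features, with the 5 tested miR-29 members marked. The members lie in the lower part of the cloud, miR-29a at an SD of 0.364 beside a median of 0.748 for features of at least 1000 CPM.

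Of 206 other named miRNAs with a mean of at least 10 CPM, those whose log2 level followed miR-29a most closely over the 36 libraries were miR-140, best known from cartilage (r = 0.68), miR-221 (0.67), the leukocyte miRNA miR-155 (0.63), miR-15a (0.61) and miR-3604 (0.57). The median r was 0.10. The most opposed were miR-1468 (−0.75), miR-149-5p (−0.71) and miR-1306 (−0.68). These values describe 36 libraries that share animals and scaling factors.

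Other miRNAs known for collagen and fibrosis, or for insulin signalling in fat, were set beside the family. Of 18 tested features of the collagen and fibrosis list, 3 were higher in subcutaneous fat, 4 were lower, and the list's median was 0.03 beside −0.09 over all features. Of all 667 features 7.2% were called higher and 9.3% lower. The stromal miRNA miR-199b was at 948 ± 469 CPM in subcutaneous fat and at 339 ± 109 CPM in visceral fat (SD, n = 18 each), a log2 difference of 1.47 ± 0.18 (adjusted p = 2.67e-07 by edgeR). miR-200a and miR-200b, which keep cells epithelial and are also among the epithelial markers, were lower by 5.16 ± 0.95 and 5.42 ± 0.996 on the log2 scale (SE), each with an adjusted p of 2.68e-04 by edgeR. miR-199a-5p and miR-214 were the other higher members, and miR-200c and miR-338 the other lower ones. As miR-200a, miR-200b and miR-200c are of the same family, the 4 lower features are not separate observations.

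In the insulin signalling list 7 of 25 tested features were higher in subcutaneous fat and 0 were lower, beside the same 7.2% and 9.3% of all features. The list's median was 0.14. miR-27a-3p, which restrains fat cell formation in mouse and human cells, was at 16110.0 ± 5478 CPM in subcutaneous fat and at 9100.5 ± 2390 CPM in visceral fat (SD, n = 18 each). Its log2 difference was 0.81 ± 0.15 (SE; adjusted p = 1.96e-04 by edgeR). For miR-27a-5p the difference was 1.76 ± 0.33 (adjusted p = 2.98e-04), and for miR-103, known to lower insulin sensitivity in mouse fat and liver, it was 0.52 ± 0.14 (adjusted p = 0.0125 by edgeR). The others were miR-195, miR-27b, let-7c and let-7i. Both arms of miR-27a come from the same precursor, and let-7c and let-7i are of the same family. The 7 called features are thus not separate observations. Beside these lists none of the 5 tested miR-29 members was called, and whether the family differs from them was not tested.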

How the data were processed

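The deposited files give raw, unnormalized counts for each miRNA in whole numbers. RPM values deposited beside the counts were each count over its library total, to within 4.79e-06. Per the labels' protocols, RNA was purified with a QIAGEN RNeasy lipid tissue kit and libraries were made with a TruSeq RNA kit. The submitters' processing notes list DESeq2 1.24.0 without a role. Not given in the sources used here are the aligner, the miRNA caller, the build and how reads that match several members were treated. A blank line with 0 counts was left out.

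All 36 libraries were fitted in R 4.3.3 with edgeR 4.0.16 (TMM, filterByExpr with minimum count 10, 1 coefficient per depot, robust glmQLFit, 30 residual degrees of freedom). Tests were two-sided, and p-values were adjusted by Benjamini-Hochberg over all 667 tested features; a call is an adjusted p under 0.05. SE means |log2 difference| over the root of the F statistic. CPM uses TMM-scaled library sizes, and log2 CPM a prior count of 2. Ratios were tested over animals by exact sign flips (Python 3.11.15, scipy 1.17.1, numpy 2.4.6). Alternatives included limma 3.58.1, on log2(RPM + 1), and DESeq2 1.42.0. The fit was also run on simulated counts without animal or letter effects. That run cannot show how the test behaves with animals shared across depots.

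The animal number pairs libraries, since the same 6 animals gave every depot: deviations from depot means correlated by 0.198 on average within an animal (64 of 90 pairs over 0.1) and by −0.0653 between animals. Deviations from a depot mean cancel over its animals, which makes the value between animals negative, so it is no separate evidence of the pairing. Members, lists and tests were chosen with earlier results of these data known. Named besides the members were the 5 features most like and the 3 least like miR-29a, and up to 3 called features of smallest p in each list; further called list members are named without values. No list holds miR-29. miR-320b had no match.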

Additional observations from a re-analysis of the deposited data

Results flagged for a closer look

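Each member was examined in each depot for a library far from the other 5, by the gap to the nearest library over the whole range (above Dixon's critical value for 6 libraries). Of the 36 combinations of member and depot, 3 had such a library, where chance gives about 1 in 20. miR-29c was at 177 CPM in SSAT2 (2025 reads), the highest level of all 36 libraries, while the other sternal libraries held 49.5 to 89.9 CPM. miR-29d-3p was at 13.2 CPM in OAT4 (189 reads), against 2.82 to 5.63 CPM in the other omental libraries, and OAT4 is a letter A library. miR-29d-5p was at 1.32 CPM in SSAT5, which rests on 14 reads, against 3.56 to 4.73 CPM in the other sternal libraries. The causes were not tested.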

How the results depend on the processing

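Between the classes 1 member, miR-29b, was called with library totals alone, with limma on log2(RPM + 1) and without OAT5; leaving out 1 animal or library in turn gave 0 to 1. Among pairs of depots 1 combination was called with library totals alone (miR-29b, SSAT minus OAT, −1.11, adjusted p = 0.0442 by edgeR) and 1 with limma (miR-29c, SSAT minus PCAT, −0.94, adjusted p = 0.0207). The difference of miR-29a was −0.21 with library totals and −0.14 with limma, where the median of all features moved to −0.29 and −0.18, and −0.0187 in letter B libraries alone. It ran from −0.0280 to 0.0868 without 1 animal and from −0.0443 (without OAT5) to 0.0830 without 1 library. That of miR-29d-5p changed sign with the letter as a covariate (0.34) and in letter B alone (0.40), and ran from −0.29 to 0.0160 without 1 animal. In letter B alone miR-29c came to 0.0180, and the ratios over miR-29a of miR-29d-3p to 0.0184 and of miR-29d-5p to 0.29. The miR-29d-5p ratio ran from −0.35 to 0.0493 without 1 animal. The causes were not tested.

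With the animal as a replicate block miR-29b differed by −0.43 (adjusted p = 0.101), and no class or depot call of a member changed. Over 10 processing alternatives its adjusted p ran from 0.0197 to 0.435, without 1 animal from 0.111 to 0.261 and without 1 library from 0.0360 to 0.160. Without 1 library miR-29c ran from −0.23 to −0.0555 and miR-29d-3p from −0.23 to −0.0254. Without 1 animal PRAT minus the others ran from −0.53 to −0.23 for miR-29a and OAT from 0.32 to 0.71 for miR-29b. The letter difference of miR-29d-5p ran from 0.98 to 1.36 without 1 library and from 1.09 to 1.37 without 1 animal. Each library left out, summed reads and the letter comparison were chosen after seeing the data. A mean of at least 10 CPM removed both miR-29d arms. Ratio tests without 1 animal could not reach the threshold. miR-29e (0 to 13 reads) and miR-29d-5p (14 to 140 reads) are limited by depth.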

Other observations

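Differences between animals were examined too. With depot in the fit, an F test over the 6 animals called 0 of 5 members, against 11.7% of all tested features. The adjusted p by edgeR was 0.223 for miR-29d-5p, 0.386 for miR-29a, 0.455 for miR-29c, 0.728 for miR-29d-3p and 0.876 for miR-29b. The unadjusted p was above 0.05 for all 5. Animals held 31.5% of the variance of miR-29d-5p, against 4.45% for depots, and 7.66% of that of miR-29b. The median over all tested features was 20.0%. As with depots, such a share is positive even where animals do not differ. Mean miR-29a over the 6 depots of an animal ran from 2951 CPM in animal 5 to 4177 CPM in animal 6.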
